A study of Homo sapiens with 12 samples.

Results

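The oxidative phosphorylation system of the mitochondrial inner membrane is built from subunits encoded in 2 genomes, and its nuclear-encoded subunits are described here in tumours with RING1B knock-down and in control tumours. Members were taken by gene name: NDUFA, NDUFB, NDUFC, NDUFS and NDUFV genes with a plain number, SDHA to SDHD, all names starting with UQCR or ATP5, CYC1 and the COX4 to COX8 subunits. The rule matched 184 names in the count table, 95 of which carried a pseudogene ending and were dropped. Of the 89 left, 81 had a mean of at least 1 CPM (CPM being read counts scaled to a common library total) and are the members, out of 57169 genes in the table and 16519 with enough counts to be tested. The rule itself uses no comparison between the groups, but the members were chosen with earlier results of these data known. Just inside the limit lay UQCRHL with a mean of 1.92 CPM, and just outside it lay COX6B2 with 0.288 CPM. All 81 members also passed the low-count filter of the test.

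RNA came from xenograft tumours formed by the established Ewing sarcoma line SK-ES1 in a host that the labels do not name. There were 6 libraries with RING1B knocked down and 6 control libraries, which the labels call wild-type. Neither the silencing construct nor any construct in the control cells is stated, and the labels do not tie libraries to animals. Titles carry a number of unstated meaning, shared by control libraries 1 and 2 (60) and by control libraries 4 and 5 (62). Knock-down libraries 3 and 4 share 67, and knock-down libraries 5 and 6 share 68. Whether libraries that share a number come from the same animal is not stated. The p-values therefore rest on the spread among these libraries, which may be technical. The study asked what RING1B, the subunit of Polycomb repressive complex 1 that places ubiquitin on histone H2A, does in the growth of Ewing sarcoma.

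RNF2, the gene of RING1B, averaged 17.7 ± 4.56 CPM in knock-down and 47.6 ± 8.44 CPM in control (SD, n = 6 each), a log2 fold change of −1.43 (SE 0.174, edgeR adjusted p = 0.00347). Total counts ran from 23859184 to 26678325 per library. Of 8 markers of Ewing sarcoma, 7 were detected in both groups and CD99 was listed at 0 in all 12 libraries. Why CD99 stood at 0 was not tested, and the value is not read as absence of its RNA. All genes of the mitochondrial genome, ribosomal and transfer RNAs included, took 14.4% of the counts in control library 6 and 10.01% in knock-down library 5, against 4.65% to 8.42% in the other 10 libraries. Libraries are numbered within each group, and the number only names the library.

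Complex I (NADH dehydrogenase) and complex II (succinate dehydrogenase) pass electrons to ubiquinone, complex III (the cytochrome bc1 complex) hands them on to cytochrome c, and complex IV (cytochrome c oxidase) reduces oxygen. Complexes I, III and IV pump protons, and complex V (ATP synthase) uses the resulting gradient to make ATP. Mitochondrial DNA encodes a few hydrophobic core subunits, and the nuclear genome encodes all other subunits, among them the whole of complex II and the many small accessory subunits. Promoters of the nuclear genes are known for sites of NRF1, the ETS family factor GABP, YY1, Sp1 and the estrogen-related receptors (ERR).

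Of the 81 members, 65 had an entry in the RefSeq promoter table (GRCh38.p14), 2 of them under a current symbol, and 16 had none. Each window runs from 250 bases before to 50 bases after the RefSeq transcription start. Both strands were searched for GCATGCG (NRF1), CCGGAAG (ETS), AAGATGG (YY1), GGGCGG (Sp1) and AAGGTCA (ERR). The NRF1 string was present in 14 members, 21.5% of the 65, and in 4.74% of the 27305 genes of the table. The ETS string was present in 32.3% of members and in 12.2% of all genes. The corresponding shares were 27.7% and 7.11% for YY1, 66.2% and 48.3% for Sp1, and 16.9% and 4.80% for ERR. These are shares of genes with the letters in at least 1 of their windows, and a match is not a bound site. The 27305 genes have 35116 windows, so a gene with several windows has more chances of a match. One promoter per complex is shown, that of the member with the smallest p in the comparison below among those with a single entry, genes of 1 chromosome being left out, with matches to the 5 strings in capitals and coordinates on GRCh38.p14. They are NDUFA1 (chrX:119871582-119871881, plus strand), SDHD (chr11:112086623-112086922, plus strand), UQCRH (chr1:46303448-46303747, plus strand), COX5B (chr2:97645812-97646111, plus strand) and ATP5MD, now ATP5MK (chr10:103396426-103396725, minus strand).
NDUFA1: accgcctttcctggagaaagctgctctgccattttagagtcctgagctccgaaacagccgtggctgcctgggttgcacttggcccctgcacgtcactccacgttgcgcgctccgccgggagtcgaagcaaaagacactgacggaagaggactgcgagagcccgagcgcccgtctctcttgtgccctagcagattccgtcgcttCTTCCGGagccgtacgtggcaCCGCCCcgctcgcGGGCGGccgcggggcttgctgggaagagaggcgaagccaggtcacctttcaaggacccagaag
SDHD: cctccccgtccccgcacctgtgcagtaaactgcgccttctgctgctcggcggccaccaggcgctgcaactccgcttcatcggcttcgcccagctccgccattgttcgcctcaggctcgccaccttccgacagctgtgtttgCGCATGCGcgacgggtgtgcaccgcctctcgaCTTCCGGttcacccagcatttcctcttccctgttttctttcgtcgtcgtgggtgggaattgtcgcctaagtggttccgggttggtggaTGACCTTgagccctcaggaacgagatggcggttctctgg
UQCRH: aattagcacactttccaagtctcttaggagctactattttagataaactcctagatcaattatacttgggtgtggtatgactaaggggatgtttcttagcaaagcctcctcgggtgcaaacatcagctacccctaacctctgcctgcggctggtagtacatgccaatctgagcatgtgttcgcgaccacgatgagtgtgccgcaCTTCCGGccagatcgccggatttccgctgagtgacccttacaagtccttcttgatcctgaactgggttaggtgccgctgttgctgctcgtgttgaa
COX5B: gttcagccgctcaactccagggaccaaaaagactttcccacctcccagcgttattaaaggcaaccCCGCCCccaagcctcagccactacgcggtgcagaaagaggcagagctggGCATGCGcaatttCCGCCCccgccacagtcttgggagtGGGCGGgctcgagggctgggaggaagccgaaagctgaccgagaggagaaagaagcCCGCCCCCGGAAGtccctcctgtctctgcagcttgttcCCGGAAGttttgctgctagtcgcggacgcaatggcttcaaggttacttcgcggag
ATP5MD: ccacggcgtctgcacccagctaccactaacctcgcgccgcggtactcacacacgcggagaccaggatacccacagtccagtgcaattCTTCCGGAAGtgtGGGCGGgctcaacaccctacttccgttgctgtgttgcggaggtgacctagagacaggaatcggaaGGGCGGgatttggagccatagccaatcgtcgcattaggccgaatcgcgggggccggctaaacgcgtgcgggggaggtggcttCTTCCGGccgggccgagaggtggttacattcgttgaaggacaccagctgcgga
An ETS string lies in each of these 5 windows, which were picked by p, and in 32.3% of the 65 members. The median log2 fold change was 0.15 for members with that string and 0.13 for those without. In SDHD the NRF1 string is read on both strands of the same stretch, and in ATP5MD the first ETS stretch is likewise read on both strands. COX5B holds the NRF1 string once, the ETS string at 2 places and the Sp1 string at 4 places.

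RING1B knock-down went with no called change in any member. With edgeR's quasi-likelihood test and Benjamini-Hochberg adjustment over all 16519 genes, 0 of 81 members had an adjusted p below 0.05, and the smallest was 0.313, for COX5B. Among all genes tested 49, or 0.297%, were called. Leaving out 1 library at a time moved that count between 16, without control library 3 or without knock-down library 1, and 79, without knock-down library 4. DESeq2 called 351 genes (2.12%) and limma-voom 56 (0.339%), and neither called a member. At an unadjusted p below 0.05 stood 4 members (COX5B, NDUFA1, NDUFA8 and NDUFA4), against 12.7% of all genes. For every member the ranges of the 6 knock-down and the 6 control libraries overlapped. Among all genes tested, the ranges of 202, or 1.22%, did not overlap. With edgeR shares as low as 0.297% called and 1.22% not overlapping, 0 of 81 members on either count does not set the members apart from other genes.

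The estimates were small and mostly above 0. The log2 fold change of knock-down over control was positive for 70 of 81 members, against 52.4% of all genes tested. The median was 0.14 (1.10-fold) for members and 0.01 for all genes. Among tested protein-coding genes of the shortest coding length class, which holds 69 of the members, 68.2% were positive. The 81 estimates come from the same 12 libraries and are not 81 separate observations. The 95% confidence interval excluded a 2-fold change in both directions for 80 members and a 1.5-fold change for 63. The exception at 2-fold was ATP5MD, whose interval reached 2.13-fold, the highest bound of any member, and the lowest bound was 0.743-fold, for ATP5F1B. Standard errors of the log2 fold change ran from 0.0777 to 0.282 with a median of 0.127. Titles of the libraries carry a letter of unstated meaning that is unevenly spread over the groups, D on 4 knock-down and 2 control libraries and E on 2 knock-down and 4 control libraries. With the letter as a covariate the median of the members was 0.11 with 64 positive. It was 0.14 over D libraries alone, with 56 positive, and 0.05 over E libraries alone, with 47 positive.

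**Figure D1:**
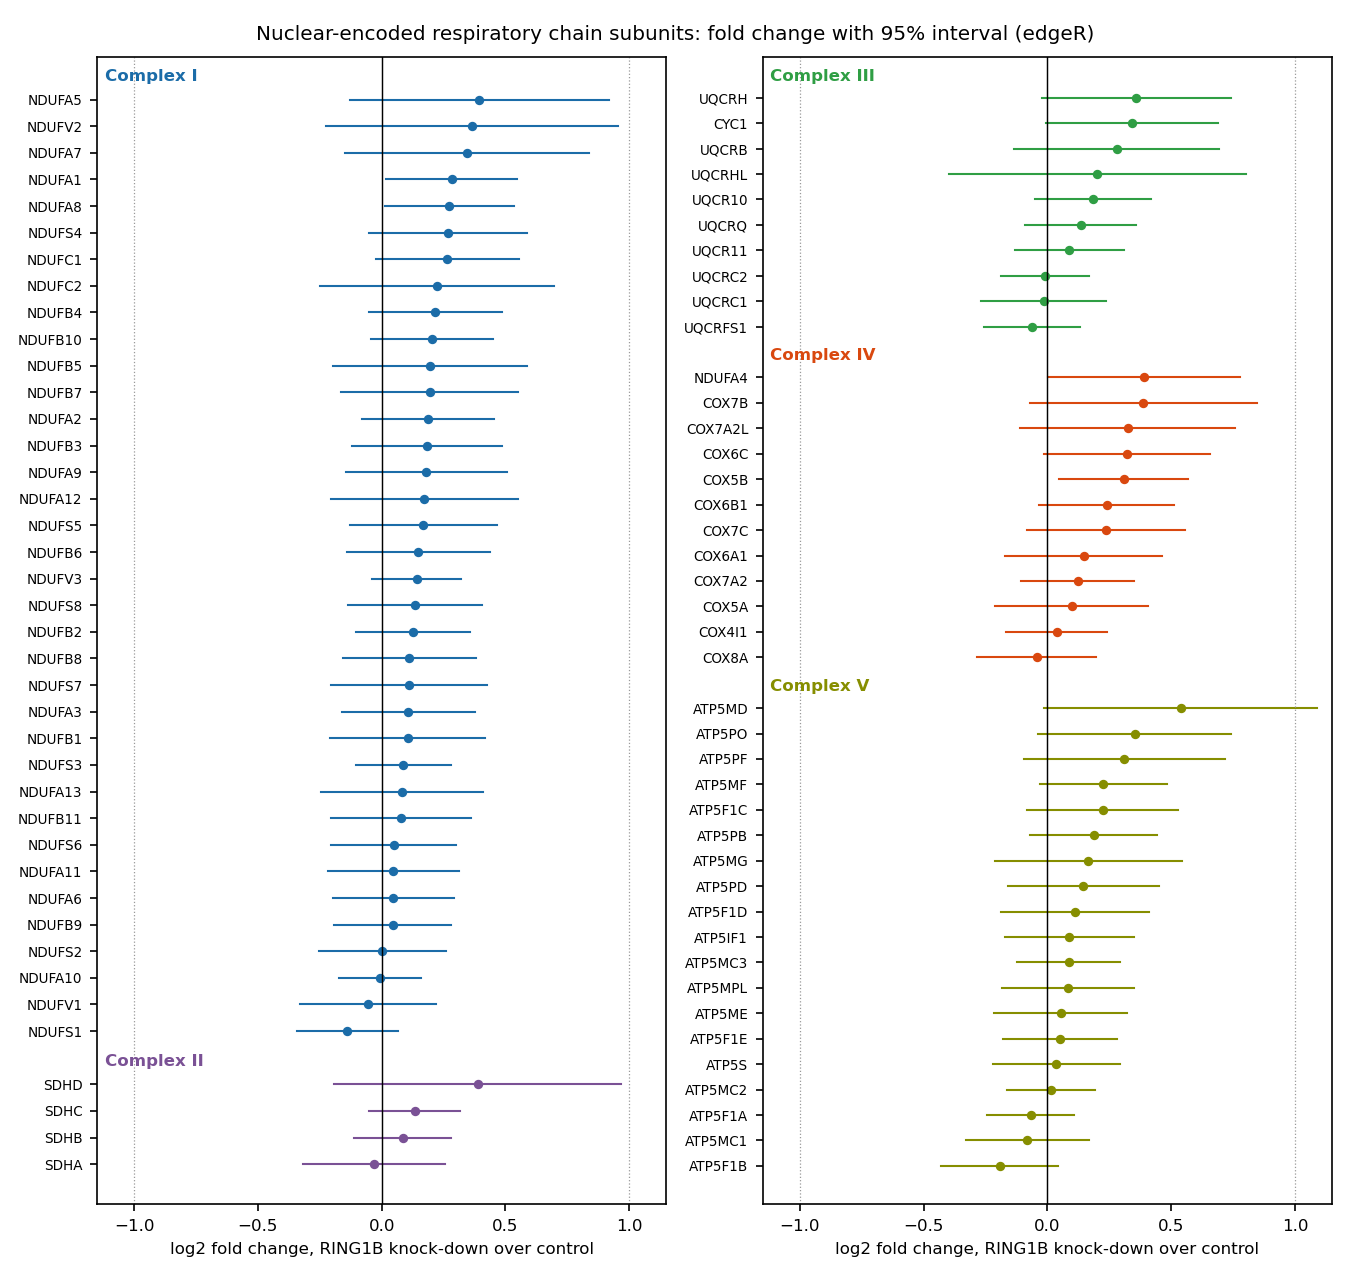
Log2 fold change of RING1B knock-down over control (horizontal axis) for each of the 81 members, grouped by complex. Points are edgeR estimates and bars are 95% confidence intervals, dotted lines mark 2-fold; 70 points lie above 0 and the bar of 1 member, ATP5MD, passes the 2-fold line.

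Complex I was represented by 36 members, 7 core subunits that carry the flavin or the iron-sulphur clusters or bind ubiquinone, and 29 accessory subunits that surround them. The accessory subunits had a median log2 fold change of 0.17 with 28 of 29 positive, and the core subunits 0.09 with 5 of 7 positive. None passed the test. The summed level of the complex was 4221 to 5008 CPM in knock-down libraries with a median of 4435 CPM, and 3517 to 4489 CPM in control libraries with a median of 4435 CPM. The medians of the groups were the same to the digits given, and control library 3 lay lowest.

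NDUFA1, a small membrane-spanning accessory subunit encoded on chromosome X from 119871487 to 119876662 (hg38, plus strand), had a lowest level of 152.6, a median of 187.7 and a highest level of 213.5 CPM in knock-down libraries, against 120.6, 156.8 and 178.6 CPM in control libraries. The ranges overlapped in their middle, with a log2 fold change of 0.28 (SE 0.124, edgeR adjusted p = 0.359). Exons of RNF113A, on the opposite strand, cover 44.5% of its exon bases, and as no strand setting is stated, their reads cannot be told apart. NDUFA8, an accessory subunit on the intermembrane space side (chromosome 9, 122144058 to 122159819, minus strand), ran over 65.2, 71.5 and 93.9 CPM in knock-down and 54.9, 62.4 and 79.8 CPM in control (lowest, median, highest). The log2 fold change of NDUFA8 came to 0.27 (SE 0.122, edgeR adjusted p = 0.366). NDUFC1, an accessory subunit of the membrane arm, gave 0.27 (SE 0.135, edgeR adjusted p = 0.434), with 81.4 to 120.2 CPM in knock-down and 64.1 to 106.4 CPM in control.

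NDUFA5, an accessory subunit of the matrix arm, had the highest log2 fold change in complex I, 0.40 (SE 0.246, edgeR adjusted p = 0.528). It had 63.2, 87.8 and 151.2 CPM in knock-down libraries and 53.4, 65.9 and 138.7 CPM in control libraries (lowest, median, highest). The top value of each group, in knock-down library 5 and control library 6, stood far above that group's median, and the estimate was 0.25 without knock-down library 5 and 0.64 without control library 6. NDUFS1, the large iron-sulphur core subunit, had the lowest estimate, −0.14 (SE 0.0959, edgeR adjusted p = 0.570), with 127.8, 147.7 and 175.4 CPM in knock-down and 140.1, 165.2 and 185.6 CPM in control. Exons of other genes cover 11.7% of its exon bases. Per kilobase of transcript, NDUFB9 had the highest level in the complex, 1203 CPM per kilobase over the 12 libraries, followed by NDUFS5 with 522.9. NDUFB9 is an accessory subunit on chromosome 8, and exons of genes on the opposite strand cover 21.0% of its exon bases. It had 695 to 998 CPM in knock-down and 644.9 to 944 CPM in control (log2 fold change 0.04, SE 0.111, edgeR adjusted p = 0.906). NDUFA9 had the lowest level, 2.43 CPM per kilobase, on an annotated transcript of 8363 bases, and a log2 fold change of 0.18 (SE 0.152, edgeR adjusted p = 0.654).

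Complex II, which is also an enzyme of the citric acid cycle, has 4 subunits, all nuclear. Its summed level was 366 to 485 CPM in knock-down libraries (median 427) and 373 to 422 CPM in control libraries (median 405). SDHA, the flavoprotein, and SDHB, the iron-sulphur protein, form the catalytic part. SDHA ran over 73.4, 107.7 and 120.05 CPM in knock-down and 81.5, 105.8 and 126.6 CPM in control (lowest, median, highest; log2 fold change −0.03, SE 0.134, edgeR adjusted p = 0.950). SDHB ran over 188.8, 217.8 and 260.5 CPM in knock-down and 190.5, 211.0 and 226.0 CPM in control (0.08, SE 0.0913, edgeR adjusted p = 0.738). Both pairs of medians lay within the spread of either group. SDHC and SDHD anchor the enzyme in the membrane. SDHC had 49.5 to 64.1 CPM in knock-down and 49.0 to 55.3 CPM in control (0.13, SE 0.0860, edgeR adjusted p = 0.540). SDHD, on chromosome 11 from 112086773 to 112120013 (plus strand), had 24.5, 38.7 and 72.5 CPM in knock-down and 25.8, 29.7 and 62.2 CPM in control, again with knock-down library 5 and control library 6 on top (0.39, SE 0.273, edgeR adjusted p = 0.581). Its estimate was 0.21 without knock-down library 5 and 0.63 without control library 6. Per kilobase SDHB stood highest at 187.7 CPM per kilobase and SDHC lowest at 4.01 on an annotated transcript of 13566 bases. In CPM not divided by length SDHD was the lowest, with a mean of 40.6 against 54.4 for SDHC.

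In complex III, the 6 small subunits, UQCRHL included, had positive estimates with a median log2 fold change of 0.19. The core proteins UQCRC1 and UQCRC2, which form the matrix part, had estimates of −0.02 and −0.01. These classes also differ in coding length, 168 to 333 bases against 1440 and 1359, and the part of length was not tested. The summed level of the 10 members of complex III was 1419 to 1703 CPM in knock-down (median 1624) and 1261 to 1572 CPM in control (median 1485). CYC1, the electron-carrying cytochrome c1, had 149.3, 175.1 and 249.0 CPM in knock-down libraries and 113.1, 141.4 and 206.6 CPM in control libraries (lowest, median, highest). The top value lay in knock-down library 4 and the ranges overlapped (log2 fold change 0.34, SE 0.163, edgeR adjusted p = 0.404). UQCRH, the hinge protein that sits beside cytochrome c1 (chromosome 1, 46303631 to 46316776, plus strand), had 194.7, 249.0 and 362.2 CPM in knock-down and 163.1, 185.4 and 320.1 CPM in control (0.36, SE 0.179, edgeR adjusted p = 0.427). In CPM UQCRC1 stood higher (mean 352 against 236), but per kilobase UQCRH had the highest level of the complex, 391 CPM per kilobase. Its near-identical copy UQCRHL had the lowest, 0.879 CPM per kilobase, with 1.58 to 3.11 CPM in knock-down and 1.18 to 3.10 CPM in control, and how reads that match both genes were counted is not given in the sources used here. UQCR10, a small membrane subunit, gave 0.19 (SE 0.110, edgeR adjusted p = 0.508), with 99.8 to 138.8 CPM in knock-down and 86.1 to 116.6 CPM in control. UQCRFS1, the Rieske iron-sulphur protein, gave −0.06 (SE 0.0911, edgeR adjusted p = 0.823), with 58.7 to 77.8 CPM in knock-down and 63.4 to 76.0 CPM in control.

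Complex IV had a median log2 fold change of 0.24, with 11 of 12 members positive and none called. The median was 0.15 without knock-down library 5, 0.19 over the D libraries alone and 0.05 over the E libraries alone. Its summed level was 2255 to 3277 CPM in knock-down libraries (median 2500) and 1821 to 2755 CPM in control libraries (median 2307). COX5B, a zinc-binding subunit on the matrix side (chromosome 2, 97646040 to 97648383, plus strand), had the smallest p of all members. It had 212.6, 248.5 and 273.9 CPM in knock-down and 146.4, 200.1 and 251.0 CPM in control (lowest, median, highest). The upper control libraries reached into the knock-down range, giving a log2 fold change of 0.31 (SE 0.122, edgeR adjusted p = 0.313). NDUFA4, first described in complex I and now placed in complex IV (chromosome 7, 10931951 to 10940256, minus strand), had 151.3, 179.1 and 329.2 CPM in knock-down and 137.7, 154.0 and 202.7 CPM in control (0.39, SE 0.182, edgeR adjusted p = 0.392). Without knock-down library 5 the estimate for NDUFA4 was 0.22. Counted with complex I by its name, it leaves that complex with 37 members and a median of 0.15. COX6C, a membrane subunit, had 113.1 to 205.9 CPM in knock-down and 99.1 to 148.9 CPM in control (0.32, SE 0.157, edgeR adjusted p = 0.412), and 0.20 without knock-down library 5.

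Several subunits of complex IV exist as tissue isoforms, and the broadly expressed form was the one measured. COX4I1 had the highest level of the complex, 457 CPM per kilobase, with 303 to 364 CPM in knock-down and 253 to 353 CPM in control (log2 fold change 0.04, SE 0.0960, edgeR adjusted p = 0.908). COX6A1 gave 0.15 (SE 0.149, edgeR adjusted p = 0.718), COX7A2 0.12 (SE 0.107, edgeR adjusted p = 0.665) and COX8A −0.04 (SE 0.113, edgeR adjusted p = 0.908). COX7A2L, which takes part in joining complexes into supercomplexes, had 165.9, 209.0 and 315.7 CPM in knock-down and 135.7, 152.9 and 295.6 CPM in control (0.32, SE 0.204, edgeR adjusted p = 0.531). The estimate for COX7A2L was 0.19 without knock-down library 5 and 0.54 without control library 6. The isoforms COX4I2, COX6A2, COX6B2, COX7A1, COX7B2 and COX8C had means of 0.00303 to 0.288 CPM, from 1 to 87 counts summed over the 12 libraries.

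Complex V had 19 members and a median log2 fold change of 0.09 with 16 positive. That median was 0.14 over the D libraries alone and −0.05 over the E libraries alone, and 0.04 without knock-down library 2 or without control library 3. Its summed level was 6141 to 7243 CPM in knock-down (median 6834) and 6150 to 7148 CPM in control (median 6703). The F1 head, which carries the catalytic sites, had a median of 0.05 with 3 of 5 positive. ATP5F1B, the catalytic beta subunit, had 1382, 1733 and 2190 CPM in knock-down and 1700, 2102 and 2203 CPM in control (lowest, median, highest), with knock-down library 5 and control library 6 lowest. ATP5F1B thus had a log2 fold change of −0.19 (SE 0.111, edgeR adjusted p = 0.493), the lowest of all members, at the highest level of the complex, 1045 CPM per kilobase. ATP5F1A, its partner in the head, gave −0.07 (SE 0.0823, edgeR adjusted p = 0.771).

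The peripheral stalk, which holds the head still while the rotor turns, had 4 of 4 estimates positive with a median of 0.25. ATP5PO, the stalk subunit that binds the head, had 136.7, 170.5 and 279.6 CPM in knock-down and 117.3, 140.8 and 201.0 CPM in control (lowest, median, highest; log2 fold change 0.35, SE 0.183, edgeR adjusted p = 0.442), with 25.4% of its exon bases under exons of other genes. Without knock-down library 5 it was 0.21. The c ring that forms the rotor is encoded by 3 genes with the same mature protein, and ATP5MC1 gave −0.08, ATP5MC2 0.01 and ATP5MC3 0.09, each with an edgeR adjusted p of at least 0.753. The 5 small membrane subunits had a median of 0.16. Among them ATP5MD, involved in dimers of the enzyme (chromosome 10, 103389041 to 103396492, minus strand), had 67.1, 97.3 and 200.6 CPM in knock-down and 55.9, 75.5 and 134.3 CPM in control. Its log2 fold change of 0.54 (SE 0.259, edgeR adjusted p = 0.407) was the highest of all members, and its spread was among the widest. Without knock-down library 5 the estimate was 0.32, and over the E libraries alone it was −0.05. ATP5MF, another small membrane subunit, gave 0.23 (SE 0.120, edgeR adjusted p = 0.455). ATP5S, a coupling factor, had the lowest level of the complex, 2.42 CPM per kilobase on an annotated transcript of 10212 bases, and gave 0.04 (SE 0.121, edgeR adjusted p = 0.933).

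**Figure D2:**
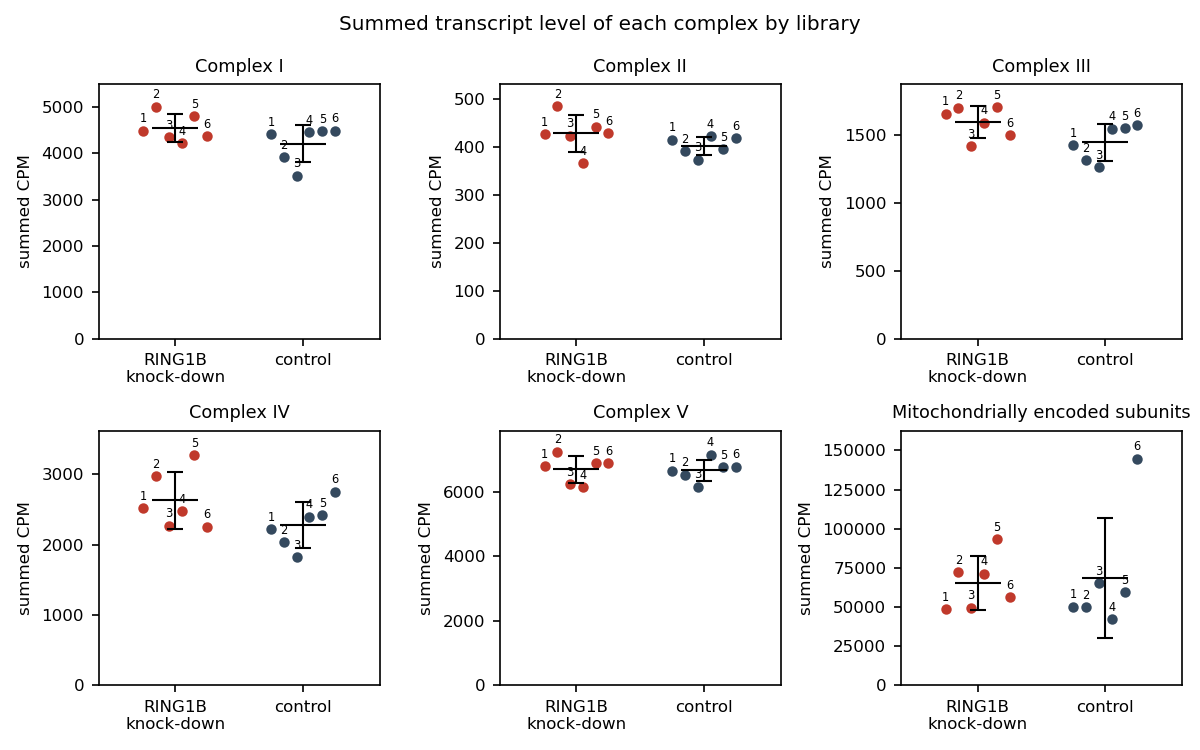
Summed CPM of the members of each complex and of the 13 mitochondrially encoded subunits (vertical axis) in each library, RING1B knock-down left and control right; numbers name libraries, and bars are mean ± SD over 6. The groups overlap in every panel, and control library 6 stands apart in the last panel at 144695 CPM.

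The 13 mitochondrially encoded subunits, which are assembled together with the nuclear ones, gave a median log2 fold change of −0.02 with 5 of 13 positive and none called. Without control library 6 the median was 0.28, over the D libraries alone it was 0.54 and over the E libraries alone −0.34. Their summed level was 48555 to 93086 CPM in knock-down (median 63721) and 42033 to 144695 CPM in control (median 54740). Set against the summed members, the mitochondrially encoded transcripts were 3.06 to 5.44 times as abundant in knock-down libraries and 2.63 to 9.04 times in control libraries, with 4.95 the next highest control. The extremes among them were MT-ND6 at 0.66 (SE 0.352, edgeR adjusted p = 0.454) and MT-CO2 at −0.28 (SE 0.271, edgeR adjusted p = 0.697). MT-ND6 is the one encoded on the other strand of mitochondrial DNA.

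Genes that build and regulate the complexes gave no call in either direction. Assembly factors had median log2 fold changes of 0.02 for complex I (11 of 18 positive), 0.18 for complex II (4 of 4), 0.06 for complex III (3 of 6), 0.05 for complex IV (17 of 23) and 0.10 for ATP synthase (4 of 5). COA6, a copper-handling factor of complex IV, gave 0.56 (SE 0.184, edgeR adjusted p = 0.224) with 35.5 to 65.9 CPM in knock-down and 24.5 to 49.4 CPM in control. ACAD9, an assembly factor of complex I, gave −0.33 (SE 0.121, edgeR adjusted p = 0.279). Of 15 regulators of mitochondrial biogenesis 14 were tested, 5 were positive and the median was −0.04. Among these, NRF1 gave −0.04, GABPA 0.22, YY1 −0.04 and ESRRA 0.18, while the coactivator PPARGC1A reached at most 0.127 CPM in any library. The 16 genes of the citric acid cycle and pyruvate dehydrogenase had a median of −0.06 with 6 positive, and CS, the citrate synthase gene, gave −0.18 (SE 0.0846, edgeR adjusted p = 0.409). Mitochondrial ribosomal proteins had a median of 0.09 (56 of 78 positive, 8 at an unadjusted p below 0.05) and cytosolic ribosomal proteins 0.30 (81 of 88 positive, 40 at an unadjusted p below 0.05), where 12.7% of all genes stood below that p. CYCS, NDUFAB1 and NDUFA4L2, electron carriers and subunits whose names fall outside the rule, gave 0.10, 0.06 and −0.02.

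The sign of the estimate went with coding length. Among the 3325 tested protein-coding genes with the shortest coding sequences, 75 to 873 bases, the median log2 fold change was 0.10 and 68.2% were positive. That length class held 69 of the 81 members, with a median of 0.15 and 66 positive. In the next class, 876 to 1404 bases, all genes had a median of 0.03 and 56.1% positive, and the 7 members had a median of 0.00 with 4 positive. In the class from 1407 to 2241 bases all genes had a median of 0.00 and 51.1% positive, and 0 of the 5 members were positive, with a median of −0.07. The class of longest genes held no member and had a median of −0.06 over all its genes. With a trend on transcript length taken out of each library, the median of the members was 0.09 and 64 were positive, and with a trend on the exon length of the table it was 0.11. Across members Spearman's rho of fold change with coding length was −0.38 (n = 81 genes from the same 12 libraries, a description). The part of transcript length in the direction was not tested further.

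**Figure D3:**
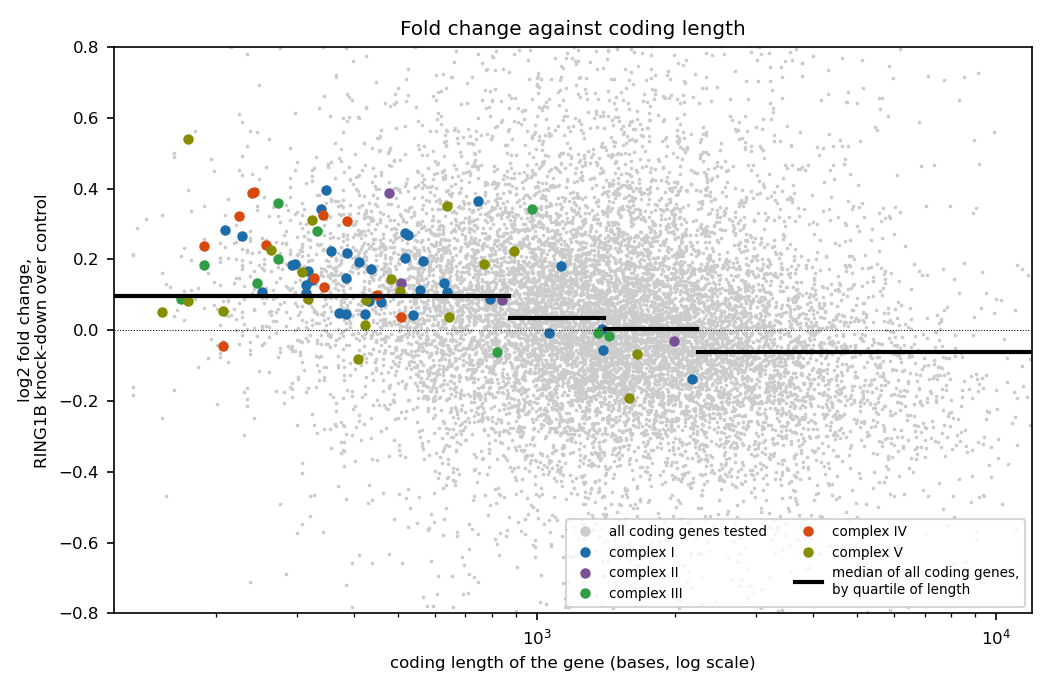
Log2 fold change of RING1B knock-down over control (vertical axis) against coding length on a log scale, for all tested protein-coding genes (grey) and the members by complex (colours). Black lines are medians of all coding genes by length class (quartiles), 0.10, 0.03, 0.00 and −0.06; points outside 0.8 either way are not drawn.

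Levels of the members differed between libraries of the same group. Control library 3 was the lowest of all 12 for 42 members, knock-down library 5 the highest for 29 and knock-down library 2 for 15. The median member lay 0.25 above its own mean on the log2 scale in knock-down library 2, 0.21 above in knock-down library 5 and 0.10 above in control library 6, and 0.33 below in control library 3. Without control library 3 the median log2 fold change of members was 0.10 with 62 positive, and without control library 6 it was 0.19. Subunits of 1 complex did not keep their ratio between libraries. Accessory over core subunits of complex I stood at 3.64 to 5.65 in knock-down and 3.23 to 4.97 in control. The same ratio for small subunits over core proteins of complex III was 0.984 to 1.76 in knock-down and 0.898 to 1.58 in control. Peripheral stalk over F1 head gave 0.195 to 0.398 in knock-down and 0.177 to 0.297 in control. In each of these 3 ratios the highest library of its group was knock-down library 5 or control library 6, the libraries with the largest share of counts from the mitochondrial genome, and knock-down library 2 came next among knock-down libraries.

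**Figure D4:**
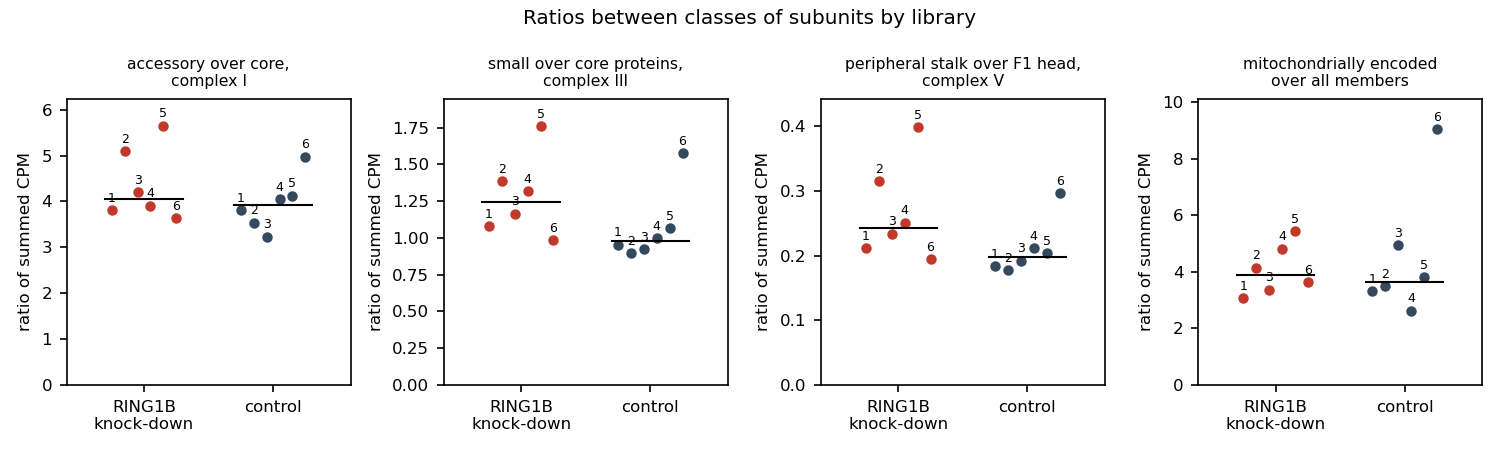
Ratios of summed CPM between classes of subunits (vertical axes) in each library, RING1B knock-down left and control right, with group medians as lines and library numbers above the points. Knock-down library 5 and control library 6 are highest in their groups in all 4 panels.

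Members differed in how much they varied within a group. NDUFA10 had a within-group SD of 0.0739 on the log2 scale, the smallest of all members, followed by NDUFV3 with 0.0985 and ATP5F1A with 0.101. SDHD, NDUFV2, ATP5MD and NDUFA5 had the largest, from 0.48 to 0.54. Counted on either strand, exons of other genes cover at most 5% of the exon bases of 43 members. These had a median log2 fold change of 0.17 with 36 positive. For the 17 members covered by more than 20% the median was 0.11. ATP5ME, a small membrane subunit of complex V, was covered for 61.6% by MYL5, all of it on the opposite strand.

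**Figure D5:**
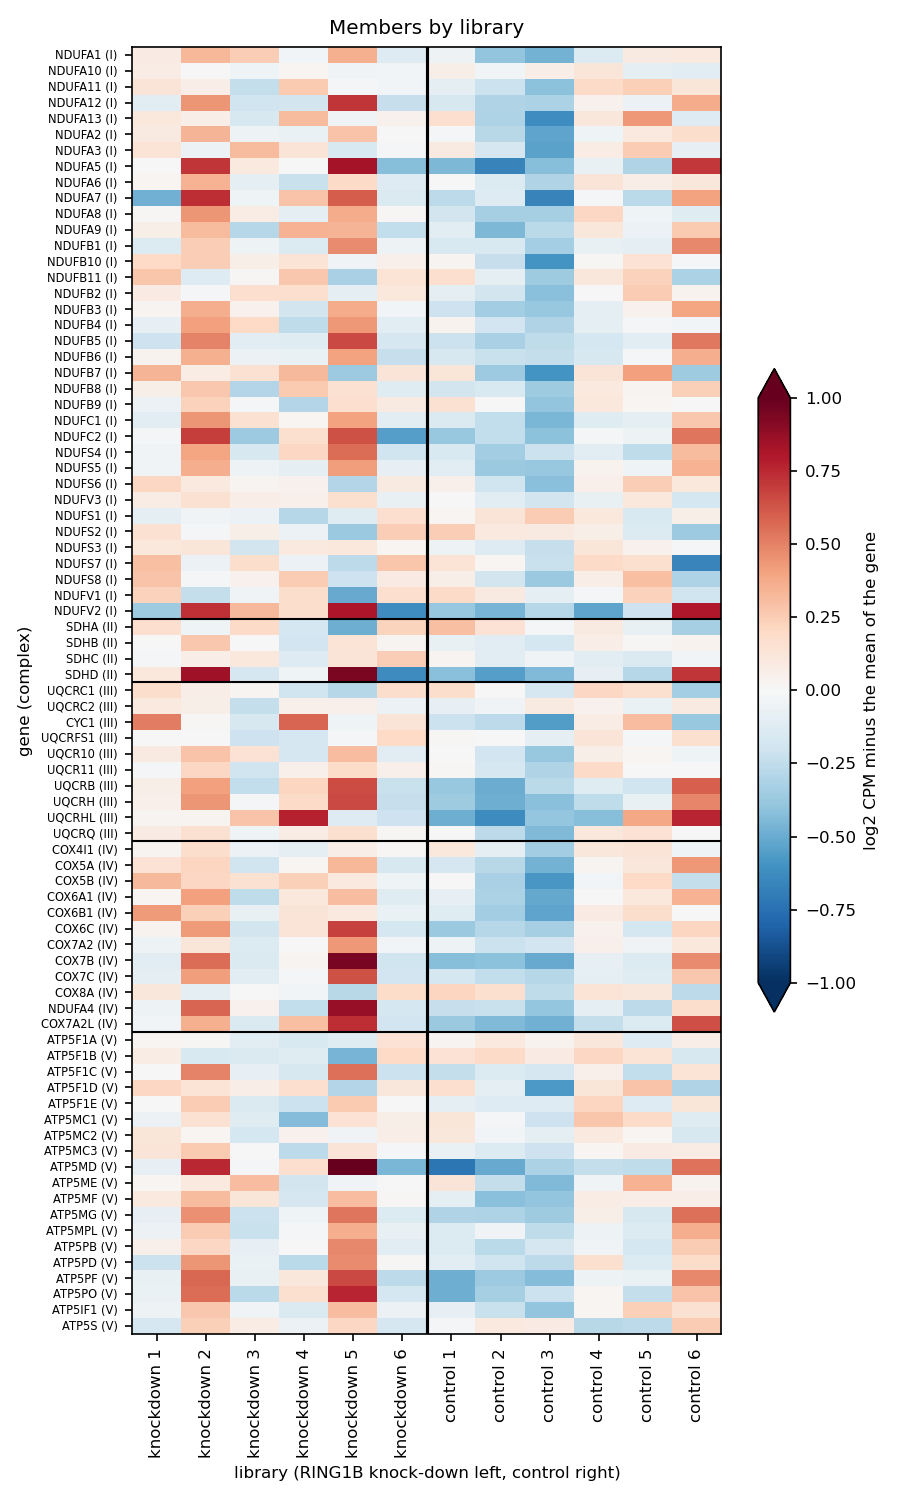
Log2 CPM of each member minus its own mean over the 12 libraries (colour), with members in rows by complex and libraries in columns, RING1B knock-down left of the black line and control right. Control library 3 is lowest for 42 members and knock-down library 5 highest for 29.

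The libraries hold RNA of a whole tumour, so fewer cells of a type and less RNA per cell cannot be told apart. Removal of host reads is not given in the sources used here. Skeletal muscle is rich in mitochondria, and of its 14 markers 3 passed the low-count filter, with log2 fold changes all negative and none called. Their list summed to 4.34 to 23.7 CPM in knock-down and 6.14 to 34.2 CPM in control. The list of fibroblast and pericyte markers summed to 409 to 1609 CPM in knock-down and 573 to 1597 CPM in control. Of 9 tested, 3 were positive, with a median log2 fold change of −0.15. DCN, among the 3 positive ones, had the smallest adjusted p (log2 fold change 0.71, SE 0.161, edgeR adjusted p = 0.0844). Endothelial markers summed to 68.0 to 103 CPM in knock-down and 67.4 to 114 CPM in control, and leukocyte markers to 8.92 to 37.8 CPM in knock-down and 8.38 to 29.8 CPM in control. Adipocyte markers summed to 2.73 to 7.75 CPM in knock-down and 2.17 to 4.38 CPM in control. No gene of these lists was called, and the part of host cells in the members' levels was not tested.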

How the data were processed

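RNA was extracted with RNeasy and libraries made with the TruSeq stranded mRNA kit, per the labels' protocols. The authors deposited 1 table of raw counts of reads for each gene. FastQC, STAR 2.6.0a, featureCounts, limma 3.40.2, R 3.6.0 and the build hg38 are named in the submitters' processing notes. How strand and reads with several matches were handled is not given in the sources used here.

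Counts were analysed in R 4.3.3. Genes passing filterByExpr (16519, at least 99.72% of counts) were scaled by TMM and tested in edgeR 4.0.16 by the quasi-likelihood F test with robust fits, without covariates, knock-down against control, with calls at a p below 0.05 after Benjamini-Hochberg adjustment. On simulated data of 16519 genes for this comparison, 19% of 100 genes changed by 0.5 and 68% of 100 changed by 1 on the log2 scale were recovered. No library repeated another of its own group, the lowest chi-square per degree of freedom over genes being 12.05. Pairs across the groups were not checked. In the shallowest library 3 counts, the floor of a count of 0, correspond to 0.128 CPM, which covers counting error only. Transcript and coding lengths come from GENCODE release 29, 1 transcript per gene. Gene coordinates, exon lengths and exon overlaps come from the deposited count table.

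Alternatives were RLE and upper quartile factors, mitochondrially encoded genes left out, no count filter, 2 length offsets, DESeq2 1.42.0, limma-voom 3.58.1, the title letter as covariate or within letters, the title number as random effect or summed, 3 libraries left out together and each library left out. Members, lists and the rule for named genes were chosen with earlier results of these data known. That rule took, per complex, the 3 members with the smallest p, the lowest and highest fold change and the lowest and highest level per kilobase, then isoform families of COX and ATP5MC genes, and up to 3 genes per other list. Members outside it that the text names, such as NDUFV3, were chosen after their values were seen.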

Additional observations from a re-analysis of the deposited data

Results flagged for a closer look

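Of 76 groups of 6 libraries checked (members named by the rule and summed levels), 8 had a library whose gap to its neighbour was past Dixon's 95% critical value, and chance flags about 1 in 20. Control library 6 gave 7 of the 8. It stood highest in control for NDUFA5 at 138.7 CPM (next 80.5), SDHD at 62.2 CPM (next 35.7), UQCRH at 320.1 CPM (next 217), COX7A2L at 295.6 CPM (next 171.5) and ATP5MD at 134.3 CPM (next 78.3). In the same library ATP5F1B was lowest in control at 1700 CPM, and the mitochondrially encoded subunits summed to 144695 CPM. Control library 3 was lowest in control for NDUFB9 at 644.9 CPM.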

How the results depend on the processing

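No member was called under any of the 26 alternatives, of which 4 were chosen after seeing the data (D libraries alone, E libraries alone, the transcript length offset, and 3 libraries left out together). Members with a positive log2 fold change numbered 47 to 72, and 62 to 73 when 1 library was left out. Their median was 0.05 to 0.16, and 0.10 to 0.19 when 1 library was left out. No paired analysis was possible because no title number occurs in both groups; the consensus correlation of libraries sharing a number was −0.125. Where a value below moved, the cause was not tested.

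Genes called over the whole table, 49 in the report, numbered 351 with DESeq2, 28 with the title letter as covariate, 91 with the title number as random effect, 7 with counts summed by title number, 6 over D and 0 over E libraries, 108 with 3 libraries left out, and 16 to 79 when 1 was left out (control library 1: 19, 2: 20, 3: 16, 4: 28, 6: 77; knock-down library 1: 16, 3: 31, 4: 79). For RNF2 the log2 fold change lost its call over D libraries (−1.37, edgeR adjusted p = 0.135) and over E libraries (−1.69, edgeR adjusted p = 0.552). The median of the mitochondrially encoded subunits was 0.039 with limma-voom, 0.13 with the letter as covariate, 0.063 with the random effect, 0.54 over D and −0.34 over E libraries, −0.25 with counts summed by title number, 0.068 with 3 libraries left out, and −0.15 to 0.28 when 1 was left out. The main value was −0.02. The median of complex V was −0.047 over E libraries and 0.14 over D libraries.

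Some estimates changed sign, none of them called; over E libraries these included NDUFA5, SDHD, NDUFA4, UQCR10 and ATP5MD, the last with the highest estimate of all members. With the exon length offset SDHA gave 0.00017 and ATP5MC2 −0.0096. With the transcript length offset NDUFB9 gave −0.027, COX4I1 −0.031 and ATP5MC2 −0.022. With the letter as covariate NDUFB9 gave −0.020, COX4I1 −0.0078 and ATP5MC2 −0.00026. With counts summed by title number SDHA gave 0.023, COX8A 0.016 and ATP5S −0.021. Over D libraries NDUFB9 gave −0.060, COX4I1 −0.072 and ATP5MC2 −0.13. Over E libraries NDUFA5 gave −0.14, NDUFB9 −0.0017, SDHD −0.27, SDHB −0.028, SDHA 0.093, UQCR10 −0.0021, UQCRFS1 0.0060, NDUFA4 −0.060, COX8A 0.12, ATP5MD −0.047, ATP5S −0.17 and ATP5MC3 −0.10. With 3 libraries left out SDHA gave 0.040 and ATP5MC2 −0.015. When 1 library was left out SDHA ran from −0.095 to 0.049, ATP5MC2 from −0.020 to 0.036, NDUFB9 from −0.032 to 0.10, COX4I1 from −0.031 to 0.059, ATP5S from −0.025 to 0.095 and COX8A from −0.10 to 0.0043. UQCRHL, with a mean of 1.92 CPM, is the member most limited by depth.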
